A study of Mus musculus with 20 samples.

Results

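The PCI/MPN octamer is the structural core of the translation initiation factor eIF3, and the 8 genes that encode its subunits, Eif3a, Eif3c, Eif3e, Eif3f, Eif3h, Eif3k, Eif3l and Eif3m, are described here across RNA, ribosome footprints and the ratio of footprints to RNA. They were taken by name from the deposited table, which holds 38784 gene symbols, and all 8 were found there and passed the filter on low counts in each assay. The study used liver from 10 mice of strain FVB/N, between 6 and 8 weeks of age, that received siRNA in lipid nanoparticles by the tail vein, 0.5 mg/kg per dose and 1 dose every 5 days. Control mice received a scrambled luciferase siRNA and the others an siRNA against Eif3m. At day 9 each siRNA group had 3 mice and at day 13 each had 2. Every mouse gave 1 RNA library and 1 footprint library, so that 20 libraries fell into 8 groups. No gene was deleted, and some Eif3m message remained in every treated mouse. Each library is from ground whole liver, in which fewer cells of a type and less RNA per cell cannot be told apart.

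eIF3 binds the small ribosomal subunit and helps to bring the initiator tRNA and the mRNA to it. Its octamer is built from subunits that carry a PCI domain (a, c, e, k, l and m), a helical fold through which they join side by side, and from subunits that carry an MPN domain (f and h). The lid of the 26S proteasome and the COP9 signalosome are related assemblies built on the same pair of domains. The remaining subunits of eIF3 (b, d, g, i and j) attach to this core at its edges. Footprints are the mRNA pieces that ribosomes shield from nuclease, so their number depends on message abundance and on ribosome occupancy.

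Sequencing depth of RNA libraries was 27.4 to 39 M counts at day 9 and 4.96 to 26.4 M at day 13. Footprint libraries held 4.5 to 7.69 M counts at day 9 and 1.64 to 6.52 M at day 13. The RNA kit was KAPA mRNA capture at day 9 and NeoPrep at day 13, so kit and day cannot be told apart in RNA, whereas the footprint libraries of both days were made with ART-seq. In both assays the mice of the 2 days carry different label series in the sample titles, so day and series cannot be told apart. All 10 hepatocyte markers were detected in all groups. Their summed level, in which the most abundant genes weigh most, was lower with Eif3m siRNA: in footprints it ran from 193000 to 226000 CPM (counts per 1 M counts after scaling between libraries) in day 9 controls and from 134000 to 156000 with Eif3m siRNA, and from 261000 to 265000 against 139000 to 171000 at day 13. Gene by gene, 3 of 10 fell and 0 rose in footprints at each day (edgeR), beside 7.94% and 6.28% of all genes that fell. In footprints 3 of 10 log2 changes were above 0 at day 9 and 2 at day 13, with medians of -0.14 and -0.35. In RNA 1 fell at day 9 and 2 at day 13, beside 3.19% and 9.87% of all genes. There 6 and 4 of the 10 log2 changes were above 0, with medians of 0.10 and -0.21. Summed markers of Kupffer cells (8 genes), endothelial cells (8), stellate cells (8), bile duct cells (6) and lymphocytes (8) each reached at most 751 CPM in any library. In footprints the Kupffer sum was 443 to 528 CPM in controls and 400 to 468 CPM with Eif3m siRNA at day 9. At day 13 it was 400 to 447 against 213 to 265 CPM. In day 9 RNA it was 306 to 363 against 210 to 245 CPM. In day 13 RNA it was 203 to 257 against 68.6 to 79.9 CPM. Of the 8 Kupffer genes, 4 fell in day 9 RNA (edgeR), beside 3.19% of all genes, and 4 log2 changes were above 0. The endothelial sum in day 9 RNA was 298 to 332 against 321 to 374 CPM. In day 13 RNA it was 229 to 246 against 152 to 161 CPM. The stellate sum had opposite directions at the 2 days: in footprints it was 299 to 325 CPM in controls and 427 to 448 CPM with Eif3m siRNA at day 9, and 685 to 700 against 387 to 459 CPM at day 13. Markers listed at 0 in a whole group included Sox9, Cd8a, Cd3e and Nkg7, each in 1 of the 8 groups, and Cftr in 2. The part of these shifts in the results on eIF3 was not tested.

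The promoters of Eif3m, the gene the siRNA targets, and of Eif3a and Eif3c, the partners whose footprints rose at both days, are shown for the 120 bases before the annotated start. They come from RefSeq (GRCm38.p6), which gave a promoter for 6 of the 8 genes. Capitals mark matches, on either strand, to the ETS letters CCGGAAG or the SP1 letters GGGCGG.
Eif3m, chr2:105017028-105017147, minus strand: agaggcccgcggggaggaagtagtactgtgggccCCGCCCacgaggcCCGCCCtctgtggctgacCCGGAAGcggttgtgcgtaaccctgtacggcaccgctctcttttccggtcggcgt
Eif3a, chr19:60790694-60790813, minus strand: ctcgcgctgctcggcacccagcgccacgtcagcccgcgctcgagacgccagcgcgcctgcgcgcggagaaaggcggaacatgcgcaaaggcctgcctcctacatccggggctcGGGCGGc
Eif3c, chr7:126566367-126566486, minus strand: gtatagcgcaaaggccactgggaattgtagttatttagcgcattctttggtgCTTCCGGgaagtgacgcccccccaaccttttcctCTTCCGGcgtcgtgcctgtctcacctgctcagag
Over the 250 bases before the start, the ETS letters were present for 3 of the 6 genes (Eif3c, Eif3l and Eif3m) and in 6.91% of all 32851 promoters of that length, and the SP1 letters for 4 of 6 (Eif3a, Eif3c, Eif3l and Eif3m) and in 32.7% of all. The CAAT-box letters CCAAT were present for 3 (Eif3f, Eif3k and Eif3l) and in 33.8% of all. For the YY1 letters AAGATGGC (1.56% of all), the CRE letters TGACGTCA (1.55%) and the ATF4 and C/EBP letters TGATGCAA (0.791%), 0 of the 6 promoters had a match. The NRF1 palindrome was present for Eif3k and in 0.782% of all. No match overlapped another. These matches describe letters and were not tested as binding sites. The shares of all promoters are not matched for GC content. Eif3m, Eif3a, Eif3l and Eif3c stood at percentiles 82.3, 83.8, 62.4 and 48.4 of all promoters in GC content. Eif3k and Eif3f, which lack the SP1 letters, stood at 33.8 and 20.1.

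Eif3m itself was strongly reduced in every treated mouse. In day 9 RNA it stood at 75.8, 73.8 and 74.2 CPM in the controls and at 8.27, 7.26 and 7.67 CPM with Eif3m siRNA. In day 9 footprints it stood at 78.7, 73.8 and 75.2 CPM in the controls and at 5.68, 6.01 and 6.75 CPM with Eif3m siRNA. The groups were far apart in both assays, and within a group the 3 mice lay close together. The log2 change at day 9 (n = 3 per group) was -3.27 (SE 0.16, adjusted p = 5.5e-07) in RNA and -3.61 (SE 0.17, adjusted p = 4.6e-11) in footprints, from edgeR's quasi-likelihood test with Benjamini-Hochberg adjustment over all genes. Of the control mean, 9.73% to 11.1% of the RNA and 7.48% to 8.90% of the footprints remained in a treated mouse.

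At day 13 the reduction of Eif3m was of similar order. Its RNA stood at 242 and 340.5 CPM in the controls and at 20.3 and 15.3 CPM with Eif3m siRNA. Its footprints stood at 76.5 and 78.7 CPM in the controls and at 5.72 and 2.46 CPM with Eif3m siRNA, values that rest on 10 and 18 counts in the treated mice. Again the groups did not overlap, but the treated mice differed more than 2-fold in footprints. The log2 change (n = 2 per group, edgeR) was -4.01 (SE 0.21, adjusted p = 9.6e-07) in RNA and -4.58 (SE 0.26, adjusted p = 1.7e-09) in footprints, with 5.25% and 6.98% of the control RNA and 3.16% and 7.37% of the control footprints remaining. Eif3m had the smallest p of all genes in these 4 comparisons.

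**Figure D1:**
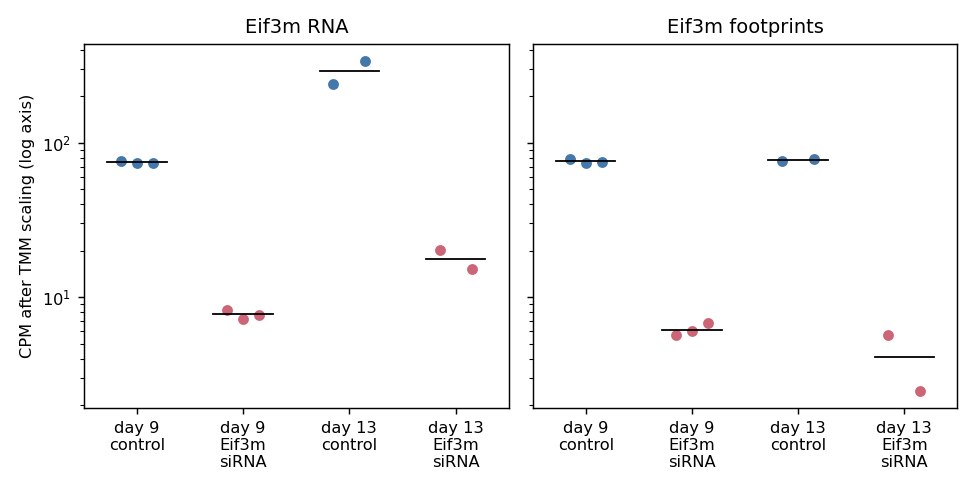
Eif3m RNA (left) and footprints (right) in CPM on a log axis, by day and siRNA; each point is 1 library and each bar a group mean. All treated libraries lie at or below 20.3 CPM and all controls at or above 73.8 CPM, and the control RNA of day 13 lies above that of day 9 while the control footprints of both days lie together.

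Control levels of Eif3m at the 2 days were far apart in RNA and close together in footprints. Mean control RNA was 74.6 ± 1.09 CPM (SD, n = 3) at day 9 and 291 ± 70.0 CPM (n = 2) at day 13, a ratio of 3.90, while mean control footprints were 75.9 ± 2.55 and 77.6 ± 1.57 CPM, a ratio of 1.02. The RNA levels were compared across kits and were not tested. The siRNA effect on Eif3m at day 13 minus that at day 9 was -0.74 (SE 0.24) in RNA and -0.97 (SE 0.33) in footprints on the log2 scale, neither of which passed the test (edgeR, adjusted p = 0.14 and 0.22). The RNA difference was -0.96 with adjusted p = 0.024 without day 13 control replicate 1, and the footprint difference was -0.14 without day 13 Eif3m replicate 2.

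Among the other PCI subunits, Eif3a and Eif3c were higher with Eif3m siRNA in all 4 comparisons of levels. Eif3a encodes the largest subunit, a scaffold of the complex, and Eif3c encodes a subunit that contacts other initiation factors at the ribosome. In day 9 footprints Eif3a stood at 91.0, 97.0 and 106 CPM in the controls and at 128, 134 and 146 CPM with Eif3m siRNA, a log2 change of 0.47 (SE 0.12, adjusted p = 0.0092, edgeR). In the same libraries Eif3c stood at 238, 208 and 229 CPM in the controls and at 296, 399.6 and 352 CPM with Eif3m siRNA, a log2 change of 0.64 (SE 0.13, adjusted p = 0.0019, edgeR). For both genes the lowest treated mouse lay above the highest control.

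At day 13 the footprints of Eif3a stood at 112 and 116 CPM in the controls and at 167 and 167 CPM with Eif3m siRNA, a log2 change of 0.55 (SE 0.15, adjusted p = 0.019, edgeR). Those of Eif3c stood at 222 and 230.3 CPM in the controls and at 409 and 369 CPM with Eif3m siRNA, a log2 change of 0.78 (SE 0.16, adjusted p = 0.0028, edgeR). The control level of Eif3c footprints was nearly the same at both days, 225 ± 15.4 CPM (SD, n = 3) and 226 ± 5.51 CPM (n = 2). The rise of Eif3c footprints passed under all 17 alternatives at each day. That of Eif3a did not pass without day 9 control replicate 1 at day 9 (adjusted p = 0.054) or without any 1 of the day 13 libraries at day 13 (adjusted p between 0.064 and 0.14).

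RNA of the same 2 genes was also higher in the treated mice, and passed at day 13. In day 9 RNA Eif3a stood at 194, 198 and 169 CPM in the controls and at 240, 278 and 259 CPM with Eif3m siRNA, a log2 change of 0.47 (SE 0.13) that did not pass (edgeR, adjusted p = 0.061). Eif3c RNA stood at 191, 185 and 184 CPM in the controls and at 235, 286 and 253 CPM with Eif3m siRNA, a log2 change of 0.47 (SE 0.14, adjusted p = 0.063, edgeR). Neither pair of groups overlapped. These adjusted p-values lie close to the threshold of 0.05: Eif3a passed in 7 and Eif3c in 9 of 17 alternatives, both of them with DESeq2 (adjusted p = 0.022 and 0.0019), and without either day 13 control library, which enters through the shared estimate of spread (0.015 for Eif3a with either left out, 0.027 and 0.026 for Eif3c without replicate 1 and 2). Eif3c also passed without day 13 Eif3m replicate 1 or 2 (0.037 for each).

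In day 13 RNA both genes passed. Eif3a stood at 242 and 304 CPM in the controls and at 386 and 424 CPM with Eif3m siRNA, a log2 change of 0.57 (SE 0.16, adjusted p = 0.034, edgeR). Eif3c stood at 257 and 246 CPM in the controls and at 493 and 374 CPM with Eif3m siRNA, a log2 change of 0.79 (SE 0.17, adjusted p = 0.0079, edgeR). The call of Eif3a was lost without day 13 control replicate 1 (adjusted p = 0.12), Eif3m replicate 1 (0.062) or Eif3m replicate 2 (0.13), and with day 13 fitted alone (0.095), and that of Eif3c without Eif3m replicate 1 (0.057).

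Eif3e, a PCI subunit known also as Int6, rose in day 13 RNA and in no other comparison of levels. Its day 13 RNA stood at 164 and 205 CPM in the controls and at 309 and 298 CPM with Eif3m siRNA, a log2 change of 0.72 (SE 0.15, adjusted p = 0.0066, edgeR) that passed under all 17 alternatives. Day 9 RNA stood at 99.9, 103 and 101 CPM in the controls and at 122, 119 and 124.5 CPM with Eif3m siRNA, without overlap, and its log2 change of 0.27 (SE 0.12) did not pass (adjusted p = 0.23). Day 9 footprints stood at 52.3, 37.6 and 48.4 CPM in the controls and at 35.7, 62.4 and 65.2 CPM with Eif3m siRNA. Here the groups overlapped, because Eif3m replicate 1 was the lowest of the 6 mice. The log2 change was 0.25 (SE 0.20, adjusted p = 0.45) and became 0.47 (adjusted p = 0.034) without that mouse's library. Day 13 footprints stood at 41.1 and 56.6 CPM in the controls and at 69.2 and 58.8 CPM with Eif3m siRNA, a log2 change of 0.37 (SE 0.27, adjusted p = 0.44, edgeR).

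Eif3k and Eif3l encode a pair of PCI subunits that bind each other at the edge of the octamer and are dispensable in some organisms. In day 9 footprints Eif3k stood at 32.6, 39.4 and 44.2 CPM in the controls and at 58.3, 54.0 and 54.1 CPM with Eif3m siRNA, without overlap. The log2 change of 0.52 (SE 0.14) passed (adjusted p = 0.013, edgeR), though not without day 9 control replicate 1 (0.41, adjusted p = 0.079). At day 13 Eif3k footprints stood at 61.4 and 58.0 CPM in the controls and at 63.5 and 70.5 CPM with Eif3m siRNA, a log2 change of 0.18 (SE 0.18, adjusted p = 0.59, edgeR). Eif3l footprints stood at 58.1, 71.1 and 68.7 CPM in day 9 controls and at 72.6, 93.6 and 74.7 CPM with Eif3m siRNA, and their log2 change of 0.29 (SE 0.13) did not pass (adjusted p = 0.16, edgeR).

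The remaining values of this pair were small changes that did not pass. Eif3l footprints at day 13 stood at 101 and 105 CPM in the controls and at 119 and 125 CPM with Eif3m siRNA (log2 change 0.24, SE 0.17, adjusted p = 0.41, edgeR). In RNA the log2 changes of Eif3k were 0.13 (SE 0.12) at day 9 and 0.32 (SE 0.17) at day 13, and those of Eif3l were 0.10 (SE 0.12) and 0.23 (SE 0.15). Eif3l at day 13 was the only RNA comparison of the 7 partners in which the groups overlapped, with controls at 75.1 and 84.6 CPM and treated mice at 102 and 84.5 CPM.

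Eif3f and Eif3h encode the MPN subunits. Day 9 footprints of Eif3f stood at 30.4, 35.2 and 46.1 CPM in the controls and at 70.1, 44.2 and 42.8 CPM with Eif3m siRNA, overlapping, with a log2 change of 0.48 (SE 0.22, adjusted p = 0.16, edgeR). At day 13 they stood at 57.9 and 92.0 CPM in the controls and at 91.5 and 107 CPM with Eif3m siRNA, a log2 change of 0.41 (SE 0.28, adjusted p = 0.39, edgeR). The spread of Eif3f footprints between mice of a group was wide, reaching ± 24.1 CPM (SD, n = 2) in the day 13 controls. Its RNA was tight by contrast, at 99.6, 99.4 and 99.2 CPM in day 9 controls and at 112, 114 and 117 CPM with Eif3m siRNA, and the log2 change of 0.20 (SE 0.11) did not pass (adjusted p = 0.33, edgeR).

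Eif3h footprints stood at 69.2, 79.3 and 91.5 CPM in day 9 controls and at 90.4, 91.2 and 93.5 CPM with Eif3m siRNA, a log2 change of 0.20 (SE 0.13, adjusted p = 0.31, edgeR). At day 13 they stood at 92.7 and 103 CPM in the controls and at 131 and 132 CPM with Eif3m siRNA, without overlap, a log2 change of 0.43 (SE 0.16, adjusted p = 0.097, edgeR). Its RNA changed by 0.19 (SE 0.11) at day 9 and by 0.35 (SE 0.14) at day 13 on the log2 scale, and that of Eif3f by 0.40 (SE 0.14) at day 13. These day 13 RNA values did not pass with TMM scaling and the filter used throughout (edgeR, adjusted p = 0.1 for Eif3h and 0.069 for Eif3f). With TMM scaling and a filter of a mean of at least 5 CPM, both passed (edgeR, 0.017 for each). Both also passed in edgeR with library totals alone (0.017 and 0.023) or DESeq2 size factors (0.035 and 0.033). In DESeq2's own test they passed as well (0.00051 and 0.0035). Eif3f also passed without day 13 control replicate 1 (0.046).

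**Figure D2:**
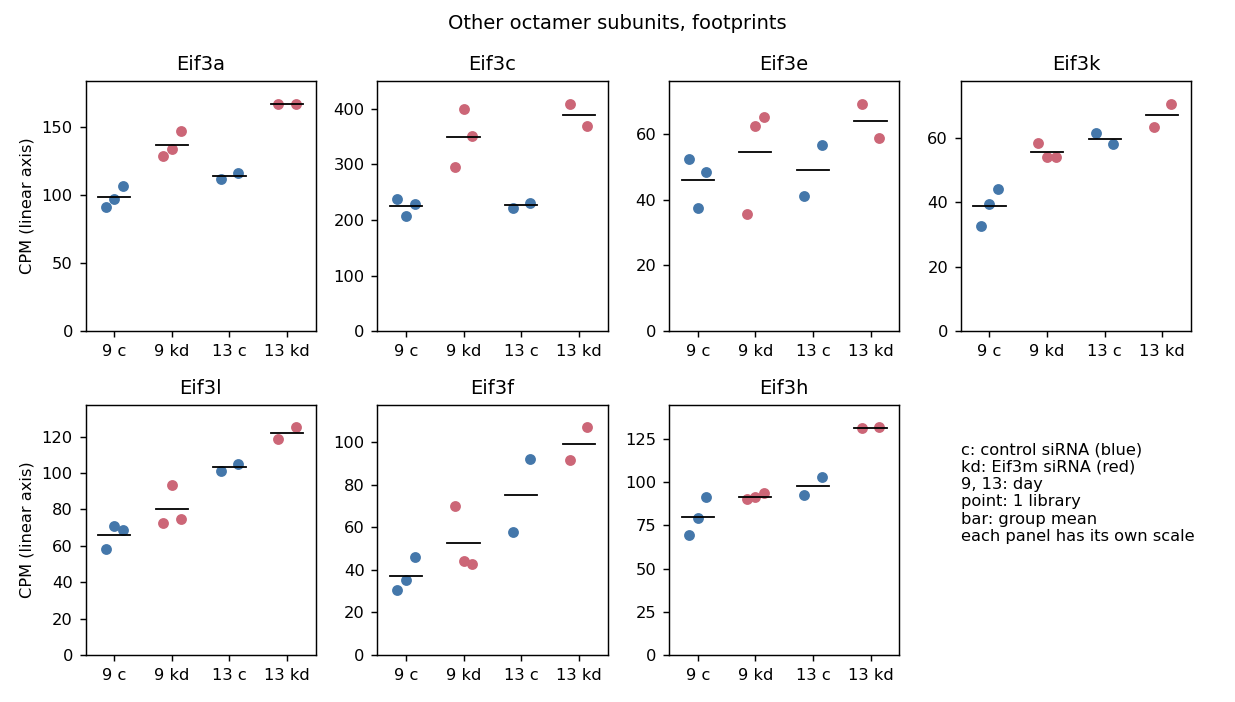
Footprint levels in CPM of the 7 partners of Eif3m, 1 panel per gene with its own linear scale from 0; each point is 1 library and each bar a group mean, with control siRNA in blue and Eif3m siRNA in red at day 9 and day 13. Eif3a and Eif3c show treated mice above controls at both days, while Eif3e and Eif3h at day 9 and Eif3f at both days overlap.

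**Figure D3:**
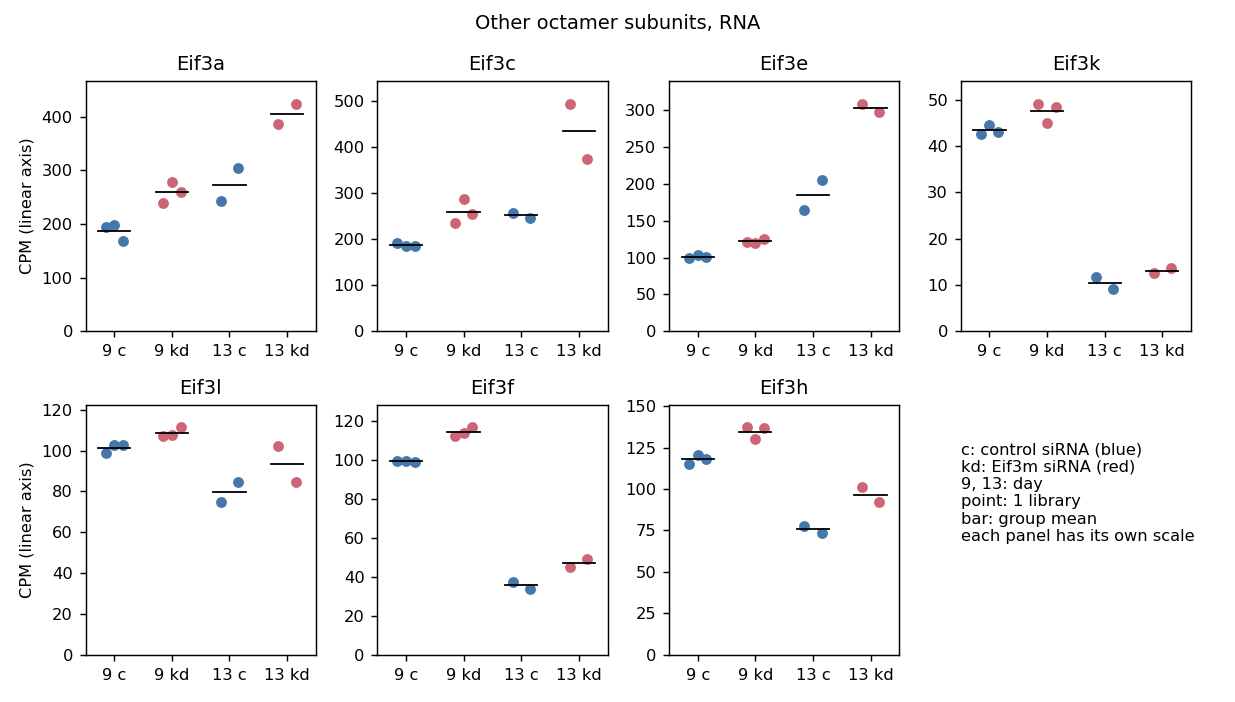
RNA levels in CPM of the same 7 genes, drawn in the same way. Treated mice lie above the controls of their day in each panel except Eif3l at day 13, and the day 13 levels of Eif3f and Eif3k lie far below those of day 9.

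Counted over the octamer, Eif3m fell in each of the 4 comparisons of levels and 0 to 3 of its 7 partners rose by edgeR. In day 9 RNA 1 of 8 members fell (Eif3m) and 0 rose, beside 5.67% of all 16444 genes called (2.48% rose and 3.19% fell). Of the 8, 4 had an unadjusted p below 0.05, beside 20.6% of all genes. DESeq2 called 2 rises and 1 fall among them, and 1636 of all genes where edgeR called 932. All 7 partners had groups without overlap on the higher side in day 9 RNA, beside 18.9% of all genes. The median of their log2 changes was 0.20, beside 0.00 for all genes.

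In day 13 RNA 3 of the 7 partners rose (Eif3a, Eif3c and Eif3e) and Eif3m fell, beside 16.0% of all genes called (6.09% rose and 9.87% fell). DESeq2 called 5 rises there, with Eif3f and Eif3h in addition, and 3165 of all genes where edgeR called 2625. The groups did not overlap for 6 of the 7, beside 18.2% of all genes on the higher side, and the median was 0.40 beside -0.16. In day 9 footprints 3 of 7 rose (Eif3a, Eif3c and Eif3k) and Eif3m fell, beside 14.7% of all 12213 genes called (6.80% rose and 7.94% fell). The groups did not overlap for 4 of the 7, beside 15.5% of all genes, and the median was 0.47 beside 0.02. In day 13 footprints 2 of 7 rose (Eif3a and Eif3c) and Eif3m fell, beside 12.4% called (6.12% rose and 6.28% fell). The groups did not overlap for 6 of the 7, beside 28.3% of all genes, and the median was 0.41 beside 0.01. Each partner's log2 change was above 0 in these 4 comparisons under all 17 alternatives of each. Leaving out a library of the other day could hardly move these changes. In day 9 RNA Eif3a stayed at 0.47 without either day 13 control library.

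No difference of the siRNA effect between the days passed for any of the 8 genes. By edgeR 0 passed in RNA and 0 in footprints, beside 1.23% and 0.819% of all genes, and DESeq2 also called 0 in each. At an unadjusted p below 0.05 there were 2 in RNA (Eif3m and Eif3e), beside 17.8% of all genes, and 1 in footprints (Eif3m), beside 12.1%. Eif3e passed in RNA (0.61, adjusted p = 0.037) without day 13 control replicate 2.

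**Figure D4:**
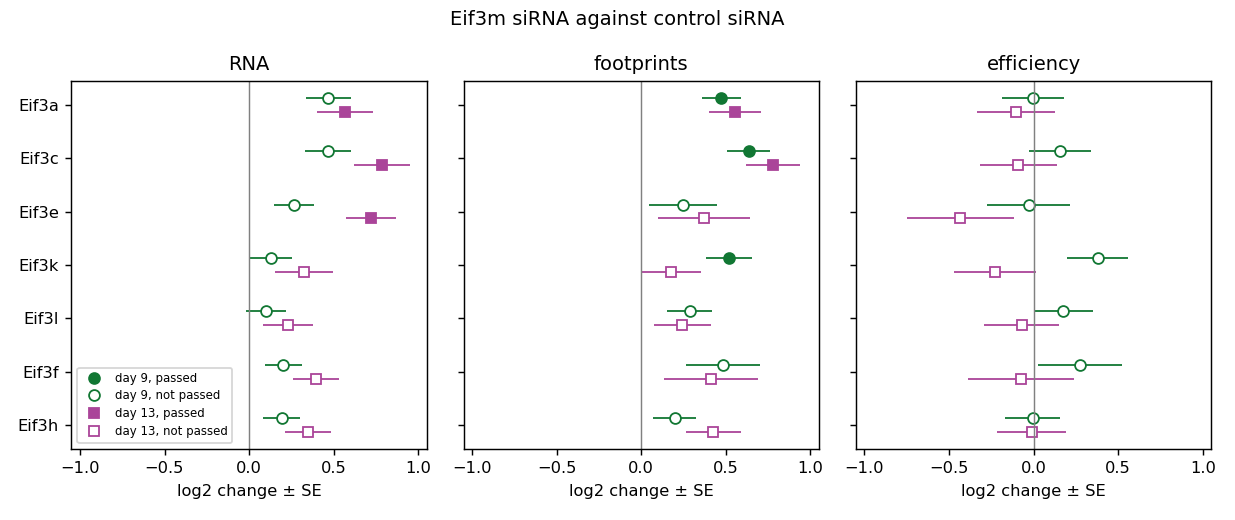
Log2 change with Eif3m siRNA against control siRNA, with its SE, for the 7 partners of Eif3m in RNA, footprints and efficiency (footprint change minus RNA change), at day 9 (circles, n = 3 per group) and day 13 (squares, n = 2 per group); filled symbols passed the test. All RNA and footprint changes lie above 0, and the efficiency changes lie on both sides of 0 at day 9.

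Efficiency, in which the RNA change is subtracted from that of footprints within a joint model of 20 libraries, did not pass for any of the 8 genes. By edgeR 0 of 8 were called at day 9 and 0 of 8 at day 13, DESeq2 called 0 at each day, and at an unadjusted p below 0.05 there was 1 at day 9 (Eif3k) and 0 at day 13. Over all 14236 genes the test called 0 at day 9 (0%), with 690 (4.85%) at an unadjusted p below 0.05 and 4 called by DESeq2, and 3 at day 13 (0.0211%), with 10.0% at an unadjusted p below 0.05. The difference between the days passed for 0 of the 8 and for 0 of all genes, with 0 members and 5.37% of all genes at an unadjusted p below 0.05 and 0 members called by DESeq2. With a term for each animal, which pairs its RNA and footprints, 8 and 12 genes were called at the 2 days, none of them a member of the octamer.

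For Eif3m the efficiency change was -0.35 (SE 0.24, adjusted p = 1, edgeR) at day 9 on the log2 scale. The log2 ratio of its footprints to its RNA, each with 0.5 CPM added, was 0.05, 0.00 and 0.02 in the day 9 controls and -0.51, -0.25 and -0.17 with Eif3m siRNA, so the treated mice were lower without overlap, as for 7.45% of all genes. At day 13 the ratios were -1.65 and -2.11 in the controls and -1.74 and -2.42 with Eif3m siRNA, overlapping, and the change of -0.64 (SE 0.35, adjusted p = 0.57, edgeR) became 0.06 without the animal that is Eif3m replicate 2 of that day. That animal had the lowest depth of all RNA libraries, 4.96 M counts, and the highest of the day 13 footprint libraries, 6.52 M. Eif3k had a log2 ratio of -0.38, -0.18 and 0.04 in day 9 controls and of 0.24, 0.27 and 0.16 with Eif3m siRNA, higher without overlap like Eif3c and 9.26% of all genes. That change of 0.38 (SE 0.18) had an unadjusted p of 0.045 and an adjusted p of 1 (edgeR). At day 13 the Eif3k ratio was 2.35 and 2.60 in the controls and 2.30 and 2.32 with Eif3m siRNA, a change of -0.23 (SE 0.24), and the difference between the days, -0.61 (SE 0.30), did not pass (adjusted p = 0.92, edgeR). For Eif3a, Eif3c, Eif3e, Eif3f, Eif3h and Eif3l the efficiency changes ran from -0.03 to 0.27 at day 9 and from -0.43 to -0.01 at day 13, where the median of all genes was 0.13. The day 13 signs of Eif3a, Eif3c, Eif3f, Eif3h and Eif3l depended on the processing. These changes were 0.08 to 0.18 with library totals alone and 0.03 to 0.12 with no filter on low counts. That of Eif3e stayed below 0 under all 18 alternatives.

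The members differed widely in how many footprints they had for their RNA in control liver. Among 7876 genes with at least 5 CPM in both control assays at day 9, the control ratio of Eif3f (mean log2 -1.43, SD 0.30, n = 3) stood at percentile 6.16, Eif3e (-1.14) at 10.3 and Eif3a (-0.93) at 14.4. Eif3l stood at percentile 23.1, Eif3h at 24.7, Eif3k at 41.5, Eif3m (0.02, SD 0.03) at 51.3 and Eif3c (0.27, SD 0.09) at 63.9. By their SDs, Eif3f, Eif3e and Eif3a were not separated from their neighbours in this order, nor were Eif3l and Eif3h. Eif3k (-0.17, SD 0.21) was not separated from Eif3m, and its range also overlapped that of Eif3h. At day 13, with the other RNA kit and 6518 genes, the order was different: Eif3k (2.48) stood at percentile 94.2 and Eif3f (1.02) at 78.2, and Eif3m (-1.88) at 10.4 beside Eif3e (-1.91) at 9.97. Transcript and coding lengths were not at hand, so these ratios and percentiles are not corrected for length. The part of length in the order of the members was not tested.

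Control RNA of the members stood at quite different levels on the 2 days. Between day 9 and day 13 the mean control RNA of Eif3k went from 43.4 to 10.4 CPM, 4.18-fold lower, and that of Eif3f from 99.4 to 35.8 CPM, 2.78-fold lower. Eif3h and Eif3l were lower as well, 1.55-fold and 1.27-fold. By contrast Eif3m was 3.90-fold, Eif3e 1.82-fold, Eif3a 1.46-fold and Eif3c 1.35-fold higher at day 13. The same genes were lower or higher in the mice given Eif3m siRNA, with Eif3k 3.62-fold and Eif3f 2.43-fold lower and Eif3m 2.30-fold and Eif3e 2.49-fold higher. As the RNA kit changed with the day, these ratios cannot be told apart from a difference between kits.

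Control footprints, made with the same kit on both days, were higher at day 13 for Eif3f, Eif3k and Eif3l. The mice of day 9 and day 13 carry different label series in the sample titles, so day and series cannot be told apart. Their log2 differences, day 13 minus day 9, were 1.01 (SE 0.26, adjusted p = 0.022), 0.62 (SE 0.16, adjusted p = 0.018) and 0.65 (SE 0.15, adjusted p = 0.011) by edgeR, and the control mice of the days did not overlap. Of the 8 members 3 rose and 0 fell, beside 10.4% of all genes called (5.47% rose and 4.89% fell), and 5 did not overlap on the higher side, beside 23.0% of all genes. DESeq2 called 3 rises as well, and 1025 of all genes where edgeR called 1265. For Eif3m (0.03, SE 0.17), Eif3c (0.01, SE 0.15) and Eif3e (0.09, SE 0.25) the days overlapped, and Eif3a (0.21) and Eif3h (0.29) did not pass (adjusted p = 0.36 and 0.22). Each of the 3 calls was lost when certain single libraries were left out. Without day 9 control replicate 1 Eif3f and Eif3k did not pass (adjusted p = 0.065 and 0.075), and without day 13 control replicate 2 the adjusted p-values were 0.31, 0.11 and 0.12 for Eif3f, Eif3k and Eif3l. Without day 13 control replicate 1, Eif3k and Eif3l did not pass (0.15 and 0.07), and Eif3f did not pass without day 9 control replicate 2 (0.069). Markers of other cells differed between the same controls: 4 of 8 stellate markers rose, with sums of 299 to 325 CPM at day 9 and 685 to 700 CPM at day 13, and 3 of 8 Kupffer markers fell, with sums of 443 to 528 and 400 to 447 CPM. Their part in the result was not tested. Day 13 control footprint libraries held 1.97 and 2.12 M counts, against 7.04 to 7.69 M at day 9.

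The peripheral subunits of eIF3, which include the RNA-binding Eif3g and the WD-repeat subunits Eif3b and Eif3i, also had log2 changes above 0 in each of the 4 comparisons. Of their 6 genes, 2 rose in day 9 RNA (Eif3j1 and Eif3j2) and 4 in day 13 RNA (these and Eif3g and Eif3i), with medians of 0.39 and 0.61 on the log2 scale, beside 2.48% and 6.09% of all genes that rose. Eif3j1 and Eif3j2 share reads, so their values are not independent and are uncertain. In footprints 3 of 6 rose at day 9 (Eif3b, Eif3g and Eif3i) and 4 at day 13 (Eif3b, Eif3d, Eif3g and Eif3i), with medians of 0.37 and 0.61, beside 6.80% and 6.12% of all genes that rose. Eif3i and Eif3g had the largest footprint changes of all eIF3 genes other than Eif3m at day 13, 1.40 (SE 0.20, adjusted p = 0.00011, edgeR) and 1.15 (SE 0.16, adjusted p = 6.9e-05, edgeR), where the octamer's partners reached at most 0.78. Whether the peripheral genes changed more than the octamer's partners was not tested.

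Related complexes and other translation genes gave the context, for which the share of all genes called was 5.67% in day 9 RNA, 16.0% in day 13 RNA, 14.7% in day 9 footprints and 12.4% in day 13 footprints. Of 10 genes of the COP9 signalosome, which removes the ubiquitin-like NEDD8 from cullins, 0 passed in day 9 RNA by edgeR or DESeq2. There 0 of the 10 had an unadjusted p below 0.05 (edgeR), beside 20.6% of all genes. In footprints 0 of the 10 passed at either day by either tool. In day 13 RNA 1 of them rose, Cops3 at 0.63 (SE 0.17, adjusted p = 0.027, edgeR). Of 9 genes of the proteasome lid, 0 passed by edgeR in all 4 comparisons, with 1 at an unadjusted p below 0.05 in day 9 RNA. DESeq2 called 1 rise and 1 fall of the lid in day 13 RNA, where it called 3165 of all genes, and 0 in the others. The lid medians in these 4 comparisons were -0.15, 0.07, -0.05 and 0.12, and those of the signalosome 0.01, 0.17, 0.01 and 0.25. With lists of 9 and 10 genes, these counts do not show that the complexes were unaffected.

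Among 29 other initiation factors, 3 rose in day 9 RNA, 10 in day 13 RNA, 7 in day 9 footprints and 6 in day 13 footprints, and 0 fell by edgeR or DESeq2 in any of the 4. Of all genes, 2.48%, 6.09%, 6.80% and 6.12% rose in these comparisons. The medians were 0.19, 0.43, 0.28 and 0.38. Eif4g2, a relative of eIF4G that lacks the site for the cap-binding protein eIF4E, rose by 0.81 (SE 0.13, adjusted p = 0.00034, edgeR) in day 9 footprints and by 1.55 (SE 0.17, adjusted p = 9e-06, edgeR) in day 13 footprints. Eif5, which activates GTP hydrolysis by eIF2, rose by 0.68 (SE 0.13) in day 9 RNA and by 1.20 (SE 0.16) in day 13 RNA. Of 32 genes for proteins of the small ribosomal subunit, to which eIF3 binds, 13 rose in day 9 RNA, 26 in day 13 RNA, 27 in day 9 footprints and 28 in day 13 footprints, with 0 falls by either tool and medians of 0.52, 1.09, 0.81 and 1.26. Rps12 had the largest change among them in each, 0.91 and 1.86 in RNA and 2.01 and 1.94 in footprints at day 9 and day 13. Many of these genes have near-identical copies in the genome, and the table divides reads between such copies, so each size is uncertain.

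**Figure D5:**
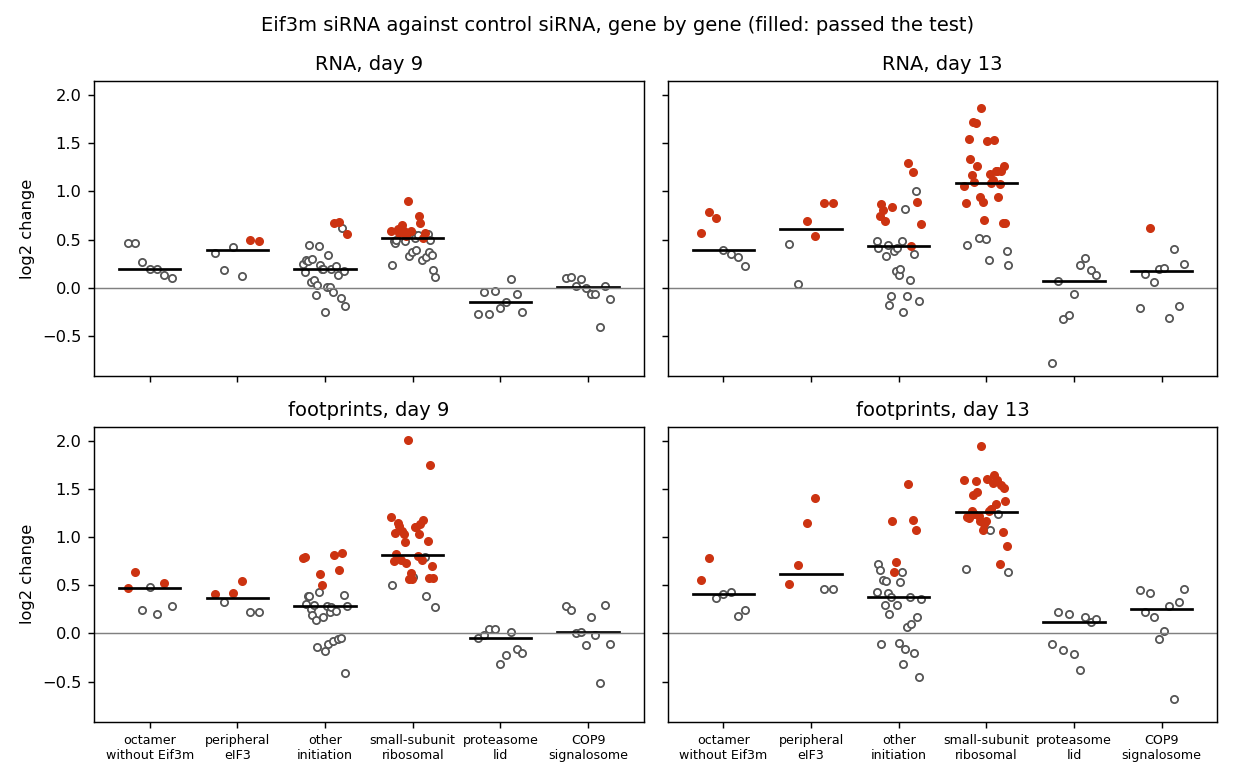
Log2 change of each gene with Eif3m siRNA in RNA (top) and footprints (bottom) at day 9 (left) and day 13 (right), by list; each point is a gene, filled red where it passed the test, and each bar is the list's median. The medians of the 7 octamer partners are 0.20, 0.40, 0.47 and 0.41 in the order day 9 RNA, day 13 RNA, day 9 footprints and day 13 footprints, and those of small-subunit ribosomal protein genes are 0.52, 1.09, 0.81 and 1.26.

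The 7 partners were compared with each other in how they varied between mice. Over the 10 footprint libraries, with log2 levels centred within a day, the 21 pairs among the 7 partners had Pearson r between 0.05 and 0.93 with a median of 0.71, and over the 10 RNA libraries between 0.30 and 0.93 with a median of 0.83. These points share the siRNA groups and the scaling of each library, so the values are descriptions. The search covered 7303 other genes with at least 5 CPM on average in each assay. Symbols of gene models, cDNA clones and genes named with -ps were left out. The 5 genes whose footprints followed the mean of the 7 partners most closely were Rps10 (r = 0.986), Rpl4 (0.980), Luc7l (0.980), Rplp0 (0.979) and Rpl24 (0.977), over 10 libraries. In RNA they were Tcea1 (0.991), Hspa9 (0.991), Rpl6 (0.989), Plk2 (0.989) and Pa2g4 (0.988).

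For Eif3m, the genes with the most similar pattern were Ugt2a3 (r = 0.989), Serpinc1 (0.986), Iah1 (0.985), Apof (0.985) and Abat (0.985) in footprints and Slco2b1 (0.992), Sqrdl (0.992), Atp7b (0.990), Vcp (0.990) and Slc47a1 (0.989) in RNA, each over 10 libraries. These points again share the siRNA groups and the scaling of each library.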

How the data were processed

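RNA and footprints were measured in livers of 10 mice, 20 libraries. The deposited values are expected counts per gene symbol, with reads of several matching places divided between them: 44.3% of nonzero values are not whole, and multiples of 1/6 account for 100% at a tolerance of 0.01. Per the submitters' processing notes the authors used cutadapt, Bowtie and Bowtie2; for versions, roles, build and counting, nothing is given in the sources used here. Groups come from the sample titles. The estimated counts were rounded and fitted in R 4.3.3 with edgeR 4.0.16 (filterByExpr, TMM scaling, robust quasi-likelihood F test), RNA and footprints apart over 4 groups each, and efficiency in 1 model over 20 libraries. A gene passed at a Benjamini-Hochberg adjusted p below 0.05 over all genes tested, two-sided; SE is the log2 change divided by the square root of F. An exact rank test of 3 against 3 animals cannot go below 0.1, and 1 of 2 against 2 animals cannot go below 0.33. The members, lists and tests were chosen with earlier results of these data known. Members are all named; context lists give counts and up to 3 called genes with the largest changes, and the 5 genes most like Eif3m or its partners are named by Pearson r. The motifs were chosen with the members' values known. Same-numbered control and treated libraries are separate animals. RNA and footprints of 1 animal, matched by the titles, deviated together from their groups (r between 0.113 and 0.453). Alternatives were other scalings and filters, DESeq2 1.42.0, each day alone, blocks and each library or animal left out. Simulated counts with planted fold changes were used to test the fits.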

Additional observations from a re-analysis of the deposited data

How the results depend on the processing

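Eif3m kept its fall and its side of the threshold in RNA and footprints at both days under every alternative run. Leaving out 1 library at a time gave log2 changes from -3.31 to -3.23 (day 9 RNA), -4.26 to -3.75 (day 13 RNA), -3.67 to -3.56 (day 9 footprints) and -4.96 to -3.75 (day 13 footprints). The number of members called, Eif3m included, varied more. In day 9 RNA it was 1, and 2 with DESeq2 size factors or no filter on low counts, 3 with library totals alone, a mean of at least 5 CPM or DESeq2, 4 with day 9 fitted alone, and 1 to 3 with a library left out. In day 13 RNA it was 4, and 6 with DESeq2 size factors, library totals alone, a mean of at least 5 CPM or DESeq2, 3 with the day alone, and 2 to 4 with a library left out. In day 9 footprints it was 4, and 7 with library totals alone and 2 to 5 with a library left out, and in day 13 footprints it was 3, and 5 with library totals alone and 2 to 3 with a library left out. Library totals alone moved the median of all genes to 0.25 and 0.34 in footprints at day 9 and day 13. For control footprints of day 13 against day 9 the number was 3, and 0 to 3 with a library left out. For the difference between the days in RNA it was 0, and 0 to 1 with a library left out, where Eif3m had -1 to -0.48. Efficiency of Eif3m ran from -0.84 to 0.06 at day 13 and from -0.49 to 0.43 for the difference between the days with an animal left out, the values above 0 being without day 13 Eif3m replicate 2. The cause of these shifts was not tested.

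With a replicate block by number, which does not pair animals across the siRNA groups, the members called were 1 and 3 in RNA and 4 and 3 in footprints at day 9 and day 13, and 2 for control footprints between days; over all genes 678 in place of 932 were called in day 9 RNA, and 61 in place of 202 (RNA) and 62 in place of 100 (footprints) for the difference between the days. Counts over all genes varied as well. In day 9 RNA the 932 became 1583 with no filter, 1636 with DESeq2, 3443 with the day alone and 292 to 2366 with a library left out; in day 13 RNA the 2625 became 969 with the day alone and 1337 to 4262 with a library left out. For the RNA difference between days the 202 became 1034 with no filter, 752 with DESeq2 and 0 to 2064 with a library left out. In footprints, library totals gave 2742 in place of 1801 (day 9) and 2355 in place of 1514 (day 13), no filter gave 242 in place of 100 for the difference between days, and a library left out took day 13 down to 429. In day 13 efficiency the 3 became 63 with library totals, 145 with no filter, 49 with DESeq2 and 0 to 437 with an animal left out, and in day 9 efficiency the 0 became 18 with no filter. Correlations of same-numbered libraries lay between -0.143 and 0.229. The block by animal in efficiency changed no member's call. Footprint density per residue was not run, as no protein or transcript lengths were at hand. The lowest depth, 1.64 M counts in 1 day 13 footprint library, leaves 10 counts for Eif3m there.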
